A study of Caenorhabditis elegans with 12 samples.

Results

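The genes described here are 10 that encode basement membrane proteins and very large proteins of the extracellular matrix of *Caenorhabditis elegans*. They are *emb-9* and *let-2* (type IV collagen chains), *lam-1*, *lam-2* and *epi-1* (laminin chains), *nid-1* (nidogen), *unc-52* (perlecan), *him-4* (hemicentin), *dig-1* (a giant secreted adhesion protein) and *fbn-1* (a fibrillin-related protein). They were chosen by name, with earlier results of these data known, out of 22034 genes in the deposited files, so a count of how many of them changed is not independent evidence. All 10 were matched to isoforms in the files (58 isoforms in all), and all 10 passed the filter on low counts. RNA was sequenced from whole adults of 2 strains at 2 ages, with 3 libraries in each of 4 groups. The wild-type worms were N2, the standard strain of the species, in which hermaphrodites make their own sperm, collected on day 1 of adulthood (before embryos were present) or on day 6 (after self-sperm had run out). The other strain, JK574, carries *fog-2(q71)*, a loss-of-function allele that leaves XX animals without sperm, written *fog-2(lf)*. It was taken on the same days. All 4 groups were grown as synchronized populations at a single temperature on OP50 bacteria, and each library pooled many worms. In RNA from whole animals, fewer cells of a type and less RNA per cell cannot be told apart.

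Basement membranes are thin sheets of matrix under epithelia and around muscle, gonad and pharynx. Laminin trimers of an alpha, a beta and a gamma chain assemble at cell surfaces, trimers of type IV collagen give the sheet its strength, and nidogen and perlecan sit between and beside those networks. In *C. elegans* much of the type IV collagen is made by body wall muscle and the somatic gonad and then deposited on other tissues. Hemicentin and DIG-1 act where tissues or neurons are held in place, and FBN-1 is known from the apical matrix of the epidermis rather than from a basement membrane.

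The libraries held 21162593 to 38775999 estimated counts, and 14559 genes entered the fit. *fog-2* itself, the check of the strain labels, stood at 47.8 ± 4.46 CPM (counts scaled to library size with TMM factors, mean ± SD, n = 3) in wild type on day 1 and 4.32 ± 0.487 in *fog-2(lf)* on day 1, and the 6 *fog-2(lf)* libraries lay below all wild-type libraries. The study's text calls the libraries of a group biological replicates, and p-values measure the spread between them. No pair of libraries of a group agreed within sampling noise.

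A single library was low in most of these genes. Replicate 1 of wild type on day 1 had the lowest CPM of all 12 libraries for 7 of the 10 genes and the lowest of its group for 8, with *fbn-1* and *nid-1* as the exceptions. The mean of the 10 z-scores (log2 CPM of each gene, centred and scaled over the 12 libraries) was -1.51 there against 0.34 and -0.05 in the other libraries of its group. The same library was low in long transcripts in general. Genes whose longest isoform is at least 10000 nt (44 genes) had a median of -1.23 there, on the log2 scale relative to each gene's own mean over the 12 libraries, and genes of 5000 to under 10000 nt (272 genes) had a median of -0.54. The 11228 genes under 2000 nt had a median of 0.08. All 10 genes are long: 4 fall in the longest class (*dig-1*, *him-4*, *epi-1*, *unc-52*) and 6 in the next. The effective lengths in the files differ there too for a short isoform, and other short isoforms were not compared. Length minus effective length was 259.0 nt for long isoforms in all 12 libraries, whereas the 231-nt isoform of *lam-1* has an effective length of 39.4 nt in this library and 31.6 nt in the other 11. What part of the differences below comes from this library's low long transcripts was not tested beyond refitting without it, and values from that refit stand beside the main results for the 10 genes. Over all genes with enough counts, it was replicate 2 of wild type on day 1 that differed most within the group. The chi-square per degree of freedom of its counts was 156 against replicate 1 and 190 against replicate 3. Between replicates 1 and 3 it was 66.3.

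**Figure D1:**
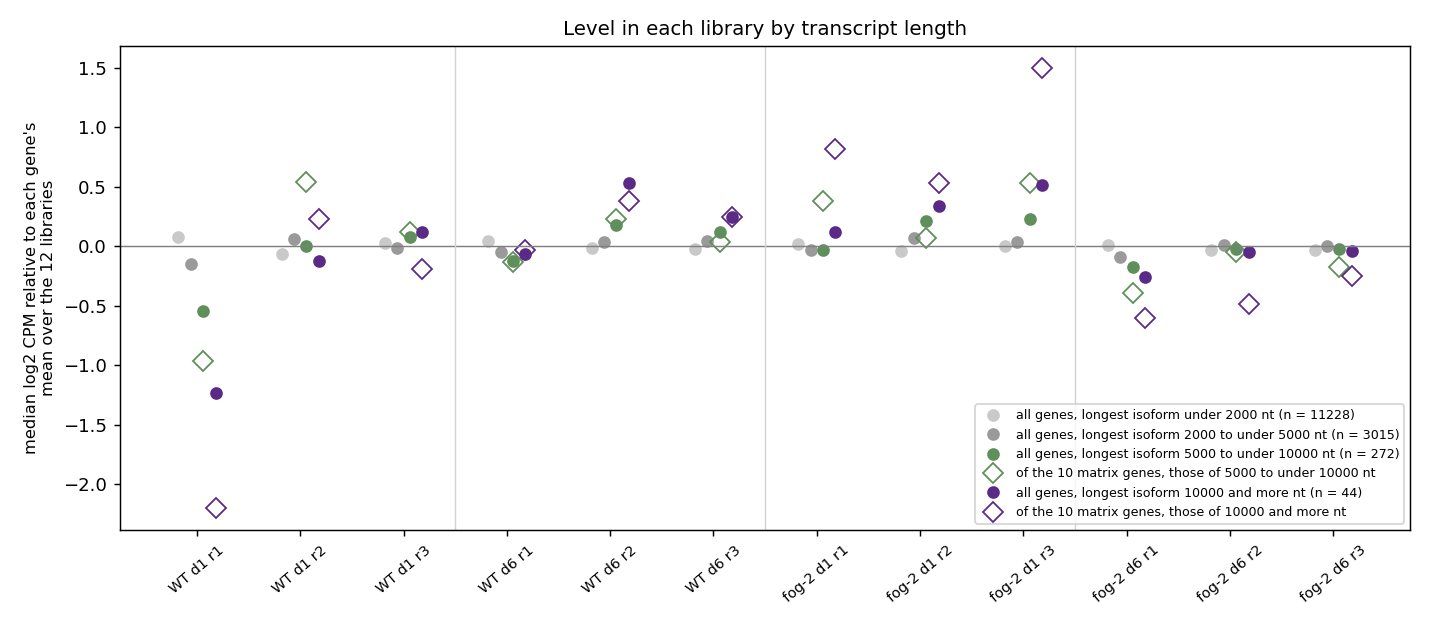
Median log2 CPM in each of the 12 libraries relative to each gene's mean over them (y axis), for all genes tested in 4 classes of longest isoform (filled circles) and for the matrix genes in the 2 longer classes (open diamonds). The long classes sit lowest in wild type day 1 replicate 1, at -1.23 for all genes of at least 10000 nt and -2.20 for the 4 matrix genes among them.

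With age in *fog-2(lf)*, 5 of the 10 genes were lower on day 6 than on day 1 (*unc-52*, *him-4*, *emb-9*, *let-2* and *nid-1*, by 2.09-fold to 7.12-fold), where 21.2% of all genes tested were called lower, and 1 was higher (*fbn-1*, 3.94-fold), where 18.1% of all genes were called higher. A gene was called when its p from edgeR's quasi-likelihood test, adjusted by Benjamini and Hochberg's method across the genes tested, was under 0.1. The same 5 and 1 were called in each of the 12 fits that left out a library, and without replicate 1 of wild type on day 1 *dig-1* was called lower as well (log2 fold change -0.79 ± 0.26 SE, adjusted p = 0.04).

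In wild type, 4 of the 10 genes were higher on day 6 (*fbn-1*, *dig-1*, *epi-1* and *lam-1*), with 23.5% of all genes called higher, and 2 were lower (*unc-52* and *nid-1*), with 25.5% called lower. Without replicate 1 of wild type on day 1 the same 4 were higher and 4 were lower, *emb-9* and *let-2* being added. Without wild type day 6 replicate 3 the number higher was 2, and without wild type day 1 replicate 2 it was 6. The shares of all genes called in these 2 fits are not given. Scaling by library totals alone moved the median of all genes in this comparison to 0.42 on the log2 scale and the split of all genes to 52.3% higher and 12.3% lower, and 5 matrix genes were then called higher and 2 lower.

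On day 1, 3 of the 10 genes were higher in the mutant than in wild type (*him-4*, *fbn-1* and *lam-1*) and 0 were lower, with 7.74% of all genes called higher and 10.6% called lower; at an unadjusted p under 0.05 edgeR had 4 higher and 0 lower, and DESeq2 called 3 and 0. These calls were lost in some of the fits that left out a single library. Without replicate 1 of wild type on day 1 the number was 1 (*him-4*, 1.36 ± 0.40, adjusted p = 0.073), without *fog-2(lf)* day 1 replicate 1 the number was 1, and without *fog-2(lf)* day 1 replicate 3 it was 0. On day 6, 0 were called higher and 0 lower, with 9.86% and 10.5% of all genes called. At an unadjusted p under 0.05, edgeR and DESeq2 each had 0 higher and 1 lower, and limma on log2(TPM + 0.5) called 3 lower. Fitted on the 6 day 6 libraries alone, 7 of the 10 were called lower in *fog-2(lf)*. The share of all genes called in that fit, and in the limma fit, is not given, so these counts have no background beside them. Without replicate 1 of wild type on day 1 *dig-1* was called lower (-1.21 ± 0.26, adjusted p = 0.017), with 11.5% of all genes called lower. Under library totals the splits of all genes were 25.1% higher and 15.3% lower for age in *fog-2(lf)*, 17.4% and 7.33% for genotype on day 1, 3.12% and 16% for genotype on day 6 and 2.82% and 19.1% for the interaction, around medians of 0.10, 0.14, -0.17 and -0.26.

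The effect of age in *fog-2(lf)* minus that in wild type (the interaction) was called negative for 4 genes (*fbn-1*, *him-4*, *dig-1* and *lam-1*), with 7.97% of all genes called lower, and positive for 0, with 7.38% called higher; edgeR and DESeq2 also had 0 positive at an unadjusted p under 0.05. The number negative was 0 without wild type day 6 replicate 2, without *fog-2(lf)* day 1 replicate 1 or without *fog-2(lf)* day 6 replicate 1. It was 1 without *fog-2(lf)* day 1 replicate 3, 2 without wild type day 6 replicate 3 or *fog-2(lf)* day 6 replicate 2 or 3, and 4 without replicate 1 of wild type on day 1. Without replicate 2 of wild type on day 1 it was 5, with the share of all genes called in that fit not given. The median over the 10 genes was 0.46 for age in wild type, -0.92 for age in *fog-2(lf)*, 0.52 for genotype on day 1, -0.45 for genotype on day 6 and -0.90 for the interaction, where the medians of all genes lay at about 0. Without replicate 1 of wild type on day 1 these medians over the 10 genes were 0.12, -0.93, 0.21, -0.44 and -0.60. These comparisons share libraries, so their values are set side by side only.

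**Figure D2:**
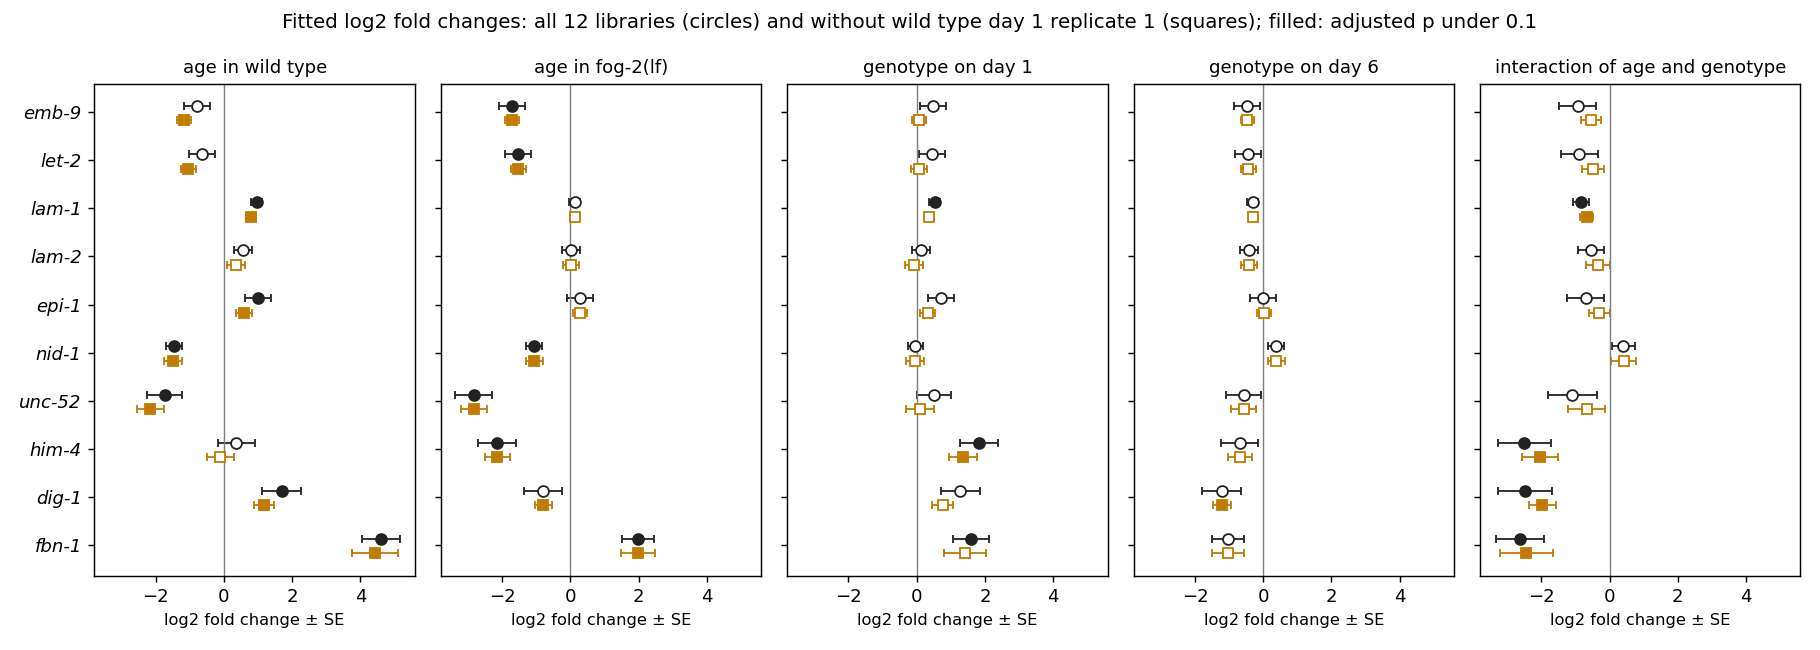
Fitted log2 fold changes (x axis, ± SE) of the 10 genes in the 5 comparisons, from all 12 libraries (circles) and without wild type day 1 replicate 1 (squares); filled symbols passed an adjusted p of 0.1. In the panel for age in *fog-2(lf)* the same 5 genes are called lower and *fbn-1* higher in both fits, and *dig-1*, at -0.79 in both, is called lower only without that library. The panel for genotype on day 1 keeps only *him-4* as a call without it.

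Levels of different genes were compared per kilobase, as CPM divided by the length of the longest isoform. In wild type on day 1, *let-2* (50.2 ± 28.7, n = 3) and *emb-9* (31.8 ± 18) stood highest, and *him-4* (0.699 ± 0.612), *dig-1* (0.241 ± 0.176) and *fbn-1* (0.126 ± 0.0891) lowest. *nid-1* (18.4 ± 4.41) and *lam-1* (11.8 ± 2.62) came next to the collagens, followed by *unc-52* (7.91 ± 6.75), *lam-2* (7.10 ± 1.89) and *epi-1* (3.29 ± 1.80). The order of *unc-52* and *lam-2* is within their spread, *lam-2* being above *unc-52* in 2 of the 3 libraries, and *epi-1* and *lam-1* also lay within the spread of *unc-52*. Replicate 1 of this group was far below the other libraries for both collagens, which widens their SD. In *fog-2(lf)* on day 6, where the libraries lay close together, the order was *let-2* (23.8 ± 1.94), *lam-1* (18.7 ± 3.16), *emb-9* (13.5 ± 1.40), *nid-1* (8.59 ± 2.20), *lam-2* (7.85 ± 2.10), *epi-1* (6.57 ± 1.35), *unc-52* (1.59 ± 0.151), *fbn-1* (1.43 ± 0.67), *him-4* (0.56 ± 0.076) and *dig-1* (0.333 ± 0.0492). In that order *nid-1*, *lam-2* and *epi-1* lay within each other's spread, as did *unc-52* and *fbn-1*.

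The type IV collagen chains are *emb-9* (alpha 1; chromosome III, 9336881 to 9344447 in WBcel235) and *let-2* (alpha 2; chromosome X, 16380597 to 16389340). In *fog-2(lf)*, *emb-9* stood at 196, 209 and 337 CPM in the day 1 libraries (replicates 1, 2 and 3) and at 66.7, 78.2 and 81.7 on day 6. In wild type it stood at 65.9, 262 and 209 CPM on day 1 and at 91.5, 116 and 105 on day 6. Both *fog-2(lf)* groups were clear of each other, with no overlap, while in wild type the low day 1 library made the groups overlap. *emb-9* fell in *fog-2(lf)* (log2 fold change -1.71 ± 0.39 SE, 3.27-fold, adjusted p = 0.0069). In wild type the value was -0.78 ± 0.38 (adjusted p = 0.13), and without replicate 1 of day 1 it was -1.17 ± 0.21 (adjusted p = 0.0024).

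*let-2* followed *emb-9* almost exactly. Its levels in *fog-2(lf)* were 315, 327 and 544 CPM on day 1 and 125, 139 and 147 on day 6. Its levels in wild type were 110, 435 and 321 CPM on day 1 and 151, 214 and 188 on day 6. The day 1 libraries were again above all day 6 libraries except for replicate 1 of wild type. *let-2* fell in *fog-2(lf)* (-1.53 ± 0.39, 2.89-fold, adjusted p = 0.012). In wild type the value was -0.65 ± 0.38 (adjusted p = 0.2), and -1.04 ± 0.23 (adjusted p = 0.0073) without replicate 1 of day 1. In the main fit neither collagen gene was called different between the genotypes at either age (adjusted p from 0.44 to 0.49). The interaction was -0.93 ± 0.54 for *emb-9* and -0.88 ± 0.54 for *let-2* (adjusted p = 0.29 and 0.33). Fitted on the day 6 libraries alone, both were called lower in *fog-2(lf)* (adjusted p = 0.019 for *emb-9* and 0.039 for *let-2*).

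The ratio of *let-2* to *emb-9*, each per length, was nearly the same in every library, although the genes themselves varied several-fold. It ranged from 1.5 to 1.63 in wild type on day 1, from 1.61 to 1.80 in wild type on day 6, from 1.53 to 1.58 in *fog-2(lf)* on day 1 and from 1.74 to 1.83 in *fog-2(lf)* on day 6. The *fog-2(lf)* groups did not overlap in this ratio, and the wild-type groups did. The ratio is given as a description, with no test.

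**Figure D3:**
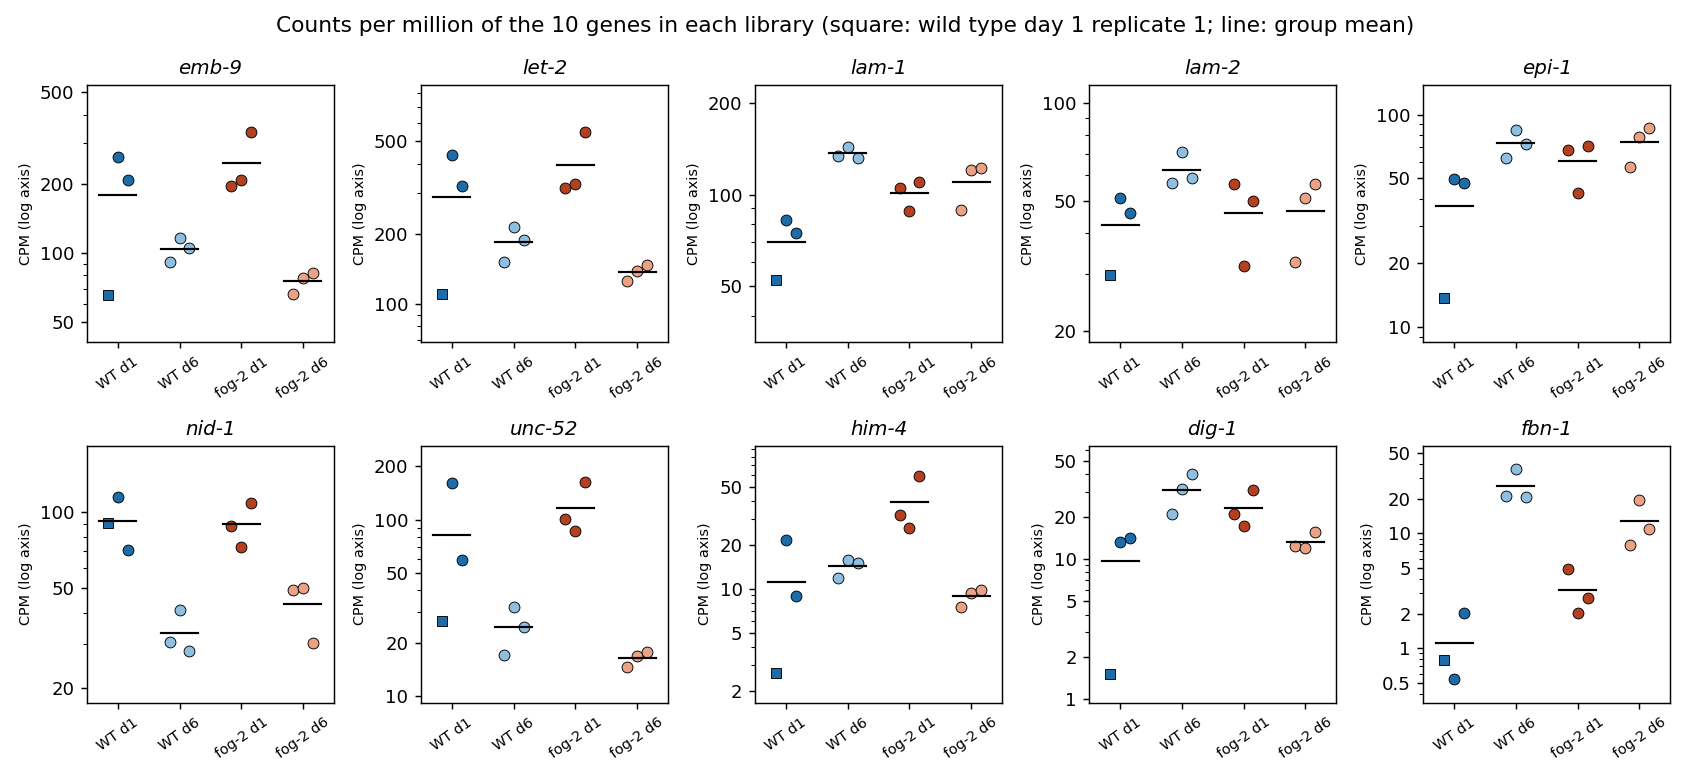
CPM (y axis, log scale) of the 10 matrix genes in the 3 libraries of each group (x axis), with the group mean as a line and wild type day 1 replicate 1 as a square. *emb-9*, *let-2*, *unc-52* and *him-4* drop from day 1 to day 6 in *fog-2(lf)* with no overlap (*emb-9* from 196 or more to 81.7 or less), and *fbn-1* is above 20 CPM only in wild type on day 6.

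The laminin genes did not follow the collagens. *lam-1* encodes the single laminin beta chain (chromosome IV, 5173332 to 5183746). Wild-type levels were 52.6, 82.3 and 74.8 CPM on day 1 and 134, 143 and 132 on day 6. In *fog-2(lf)* it stood at 105, 88.2 and 110 CPM on day 1 and at 88.9, 120 and 122 on day 6. The 3 wild-type day 1 libraries were the lowest of the 12, and the other groups ran from 88.2 to 143. *lam-1* rose with age in wild type (0.96 ± 0.16, 1.95-fold, adjusted p = 0.00098), also without replicate 1 of day 1 (0.79 ± 0.14, adjusted p = 0.0023). In *fog-2(lf)* the value was 0.13 ± 0.16 (adjusted p = 0.59), and the difference between the age effects was called (-0.84 ± 0.23, adjusted p = 0.05), though not without wild type day 6 replicate 2, *fog-2(lf)* day 1 replicate 1 or 3, or *fog-2(lf)* day 6 replicate 1 (adjusted p up to 0.12). On day 1 *lam-1* was higher in *fog-2(lf)* (0.53 ± 0.16, adjusted p = 0.061), a call that was lost without replicate 1 of wild type (0.37 ± 0.14, adjusted p = 0.13) and without *fog-2(lf)* replicate 1 or 3.

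*lam-2* encodes the single laminin gamma chain (chromosome X, 7143846 to 7151239). It stood at 29.7, 51.3 and 46.1 CPM in wild type on day 1 and at 57, 71 and 59.1 on day 6. In the mutant it stood at 56.6, 31.7 and 50.2 CPM on day 1 and at 32.7, 51.2 and 56.6 on day 6. The wild-type groups did not overlap and the *fog-2(lf)* groups covered the same range. No comparison was called (0.56 ± 0.26, adjusted p = 0.11, for age in wild type, and 0.02 ± 0.26, adjusted p = 0.96, for age in *fog-2(lf)*), though several alternatives called the first, DESeq2 and the TPM fits among them.

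*epi-1* encodes a laminin alpha chain (chromosome IV, 10666823 to 10679291). For wild type the values were 13.6, 49.6 and 47.8 CPM on day 1 and 62.6, 84.5 and 72.5 on day 6, with no overlap. For *fog-2(lf)* the values were 67.9, 42.8 and 71.2 CPM on day 1 and 56.9, 78.5 and 86.2 on day 6, with overlap. *epi-1* rose with age in wild type (0.99 ± 0.38, 1.98-fold, adjusted p = 0.061), and by less without replicate 1 of day 1 (0.59 ± 0.23, adjusted p = 0.072). The call was lost without wild type day 6 replicate 2 or 3, with an adjusted p of up to 0.15. The ratio of *epi-1* to *lam-2* per length was 0.435 ± 0.168 in wild type on day 1 and 0.622 ± 0.0359 on day 6, and 0.702 ± 0.0595 and 0.849 ± 0.0644 for *fog-2(lf)* (SD, n = 3 each). Its 3 values in wild type on day 1 were 0.243, 0.513 and 0.55, the first being replicate 1. The ratio of *lam-1* to *lam-2* was 1.68 ± 0.0872 in wild type on day 1 and between 2.22 and 2.43 on average in the other groups.

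*nid-1*, which encodes nidogen, a protein that binds both laminin and type IV collagen (chromosome V, 12910107 to 12917221), was not low in replicate 1 of wild type on day 1. In wild type it stood at 90.5, 115 and 70.8 CPM on day 1 and at 30.5, 41.1 and 28.1 on day 6. In *fog-2(lf)* it stood at 88, 72.7 and 109 CPM on day 1 and at 49, 50 and 30.4 on day 6. In both genotypes every day 1 library was above every day 6 library. *nid-1* fell with age in wild type (-1.47 ± 0.24, 2.78-fold, adjusted p = 0.00075) and in *fog-2(lf)* (-1.06 ± 0.24, 2.09-fold, adjusted p = 0.0064), and both calls held under each of the 24 alternatives. It was not called different between genotypes on day 1 (-0.04 ± 0.23, adjusted p = 0.94) or day 6 (0.38 ± 0.24, adjusted p = 0.32), and its interaction of 0.41 ± 0.33 was the only positive one of the 10.

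*unc-52* encodes perlecan, the heparan sulfate proteoglycan that anchors the myofilaments of body wall muscle to the basement membrane (chromosome II, 14647321 to 14684456). In the mutant it stood at 101, 86.2 and 164 CPM on day 1 and at 14.7, 16.8 and 17.8 on day 6. Wild-type levels were 26.5, 161 and 58.8 CPM on day 1 and 17.1, 32 and 24.5 on day 6. The *fog-2(lf)* groups were far apart, and in wild type only replicate 1 of day 1 reached into the day 6 range. The fall in *fog-2(lf)* was the largest of the 10 genes (-2.83 ± 0.54, 7.12-fold, adjusted p = 0.0025) and was called under each of the 24 alternatives. *unc-52* also fell in wild type (-1.74 ± 0.52, 3.35-fold, adjusted p = 0.019, and -2.16 ± 0.40, adjusted p = 0.0026, without replicate 1 of day 1), but the fits on TPM did not call it. In the main fit no difference between the genotypes was called (adjusted p = 0.53 on day 1 and 0.49 on day 6), nor the interaction (-1.09, adjusted p = 0.36). Without wild type day 1 replicate 2, the library at 161 CPM, *unc-52* was called higher in *fog-2(lf)* on day 1 (1.46, adjusted p = 0.022). The interaction was then called too (-2.04, adjusted p = 0.023). Fitted on the day 6 libraries alone, *unc-52* was called lower in *fog-2(lf)* (adjusted p = 0.084).

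*him-4* encodes hemicentin, a giant immunoglobulin-domain protein that holds epithelial cells together and to other tissues (chromosome X, 9717565 to 9753764). For *fog-2(lf)* the values were 32, 26.2 and 59.5 CPM on day 1 and 7.53, 9.27 and 9.83 on day 6. For wild type the values were 2.66, 21.7 and 8.86 CPM on day 1 and 11.9, 15.6 and 15.1 on day 6. The 3 *fog-2(lf)* day 1 libraries were the highest of the 12, and the wild-type day 1 libraries spanned the whole day 6 range. *him-4* fell with age in *fog-2(lf)* (-2.14 ± 0.56, 4.41-fold, adjusted p = 0.014), while the value in wild type was 0.36 ± 0.54 (adjusted p = 0.63) and -0.11 ± 0.39 (adjusted p = 0.85) without replicate 1 of day 1. Without replicate 2 of wild type on day 1, *him-4* was called higher with age in wild type (1.33, adjusted p = 0.039). It was higher in *fog-2(lf)* on day 1 (1.82 ± 0.56, 3.53-fold, adjusted p = 0.059), which was lost without wild type day 1 replicate 3 or *fog-2(lf)* day 1 replicate 3. The difference between the age effects was -2.50 ± 0.78 (adjusted p = 0.07), and -2.03 ± 0.53 (adjusted p = 0.063) without replicate 1 of wild type on day 1. It was lost in 9 of the 12 fits that left out a library.

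*dig-1* has the second longest transcript of the genes tested, with a longest isoform of 39782 nt, and keeps neurons and the gonad in position (chromosome III, 6746308 to 6794764). In wild type it stood at 1.51, 13.2 and 14 CPM on day 1 and at 20.8, 31.4 and 40 on day 6. In *fog-2(lf)* it stood at 20.8, 17.1 and 30.9 CPM on day 1 and at 12.4, 11.9 and 15.5 on day 6. Neither pair of groups overlapped, and the directions were opposite. *dig-1* rose in wild type (1.69 ± 0.58, 3.22-fold, adjusted p = 0.037, and 1.17 ± 0.30, adjusted p = 0.014, without replicate 1 of day 1), with the call lost without wild type day 6 replicate 3 (adjusted p = 0.11). In *fog-2(lf)* the value was -0.79 ± 0.56 (adjusted p = 0.32), and the difference between the age effects was called (-2.48 ± 0.80, adjusted p = 0.079, and -1.97 ± 0.40, adjusted p = 0.039, without replicate 1 of wild type on day 1). It was lost without wild type day 6 replicate 2 or 3, without *fog-2(lf)* day 1 replicate 1 or 3 and without any 1 of the *fog-2(lf)* day 6 libraries, with an adjusted p of up to 0.17.

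*fbn-1* (chromosome III, 7625386 to 7641078) showed the largest increase. Wild-type levels were 0.791, 0.539 and 2.01 CPM on day 1 (16 to 35 counts) and 21.2, 36.1 and 20.5 on day 6 (670 to 1119 counts). In the mutant it stood at 4.89, 2.03 and 2.74 CPM on day 1 and at 7.88, 19.3 and 10.8 on day 6. Every day 6 library was above every day 1 library, in both genotypes. *fbn-1* rose in wild type (4.61 ± 0.56, 24.4-fold, adjusted p = 0.00013) and in the mutant (1.98 ± 0.48, 3.94-fold, adjusted p = 0.0097), under each of the 24 alternatives. The increase was smaller in *fog-2(lf)* (interaction -2.63 ± 0.70, adjusted p = 0.046), and this difference was lost without wild type day 6 replicate 2 or *fog-2(lf)* day 1 or day 6 replicate 1, with an adjusted p of up to 0.11. On day 1 it was higher in *fog-2(lf)* (1.6 ± 0.53, 3.03-fold, adjusted p = 0.077) and not called without replicate 1 of wild type (1.41 ± 0.62, adjusted p = 0.18) or 4 other libraries left out singly. Because *fbn-1* was so low on day 1, its fitted change depends on the scale, and limma on log2(TPM + 1) gave 1.78 for age in wild type and 0.72 for age in *fog-2(lf)*, both called.

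Since the 10 genes share long transcripts, the values of all long genes are the background for them. Among the 44 genes of at least 10000 nt the median log2 fold change was 0.52 for age in wild type, -0.43 for age in *fog-2(lf)*, 0.67 for genotype on day 1, -0.40 for genotype on day 6 and -1.01 for the interaction, with 36.4% called lower in the last. Without replicate 1 of wild type on day 1 these medians were 0.21, -0.43, 0.34, -0.40 and -0.72. Among the 272 genes of 5000 to under 10000 nt they were 0.17, -0.22, 0.27, -0.10 and -0.33. For age in *fog-2(lf)* 31.8% of the longest class and 28.7% of the next were called lower, against 20.2% of the genes under 2000 nt, and the share of the longest class was 50% without that library. With age in wild type, 38.6% of the longest class were called higher and 9.09% lower. Between genotypes on day 1 these shares were 31.8% and 0%. Of the next class, 26.1% and 13.2% were called higher in these comparisons, in that order. Without replicate 1 of wild type on day 1, 34.1% and 20.5% of the longest class were called higher in them. The direction of the matrix genes' median was thus the direction of long genes as a whole in each of the 5 comparisons. These classes include the 10 genes. The falls of *unc-52*, *him-4*, *emb-9* and *let-2* in *fog-2(lf)* were larger than the median of their length class. Because these genes were named for being called lower there, no conclusion is drawn from this. *epi-1*, *lam-1*, *lam-2* and *fbn-1* had positive values in that comparison (0.29, 0.13, 0.02 and 1.98).

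The isoforms of 3 of the genes changed their shares with age in both genotypes. Shares are percentages of a gene's estimated counts, which kallisto assigns by estimation where isoforms share sequence, and the exons are those of the WBcel235 annotation. *let-2* has a pair of mutually exclusive exons and is known for a switch between them during development. Isoform a uses an exon of 108 nt (chromosome X, 16386754 to 16386861) and isoform b one of 111 nt (16386613 to 16386723). Isoform a held 2.91%, 4.41% and 8.32% of *let-2* in wild type on day 1 and 25.4%, 38.9% and 51.8% on day 6. In *fog-2(lf)* it held 1.54%, 3.77% and 2.81% on day 1 and 15.3%, 29.1% and 24.6% on day 6. All 6 day 6 libraries were above all 6 day 1 libraries. In the fit on isoforms, a.1, the longer of its annotated forms (5744 nt), rose in wild type (2.43 ± 0.62, adjusted p = 0.019) and in the mutant (1.77 ± 0.60, adjusted p = 0.069), while *let-2* as a whole was not higher in either. The second call was lost in 5 of the 12 fits that left out a library (each *fog-2(lf)* day 1 library and *fog-2(lf)* day 6 replicates 2 and 3), with an adjusted p of up to 0.19. Isoform b.2 fell in wild type (-1.73 ± 0.56, adjusted p = 0.051) and in the mutant (-2.12 ± 0.57, adjusted p = 0.028). The first of these was lost without wild type day 1 replicate 2 or 3 or day 6 replicate 1 or 3, and the second without *fog-2(lf)* day 1 replicate 3. Isoform b.1 fell in the mutant (-1.69 ± 0.41, adjusted p = 0.018) and was not called in wild type (-0.99 ± 0.40, adjusted p = 0.1). Isoform a.2 was called in neither genotype (1.83 ± 0.91, adjusted p = 0.18, and 1.27 ± 0.90, adjusted p = 0.37).

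*nid-1* switched between isoforms as well. Isoform c lacks 4 internal exons of isoform a, of 171, 97, 497 and 243 nt (chromosome V, 12914221 to 12915555), and is 1008 nt shorter in the files, while isoform b lacks the exon of 171 nt only. Isoform c held 91.3%, 91.6% and 89.5% of *nid-1* in wild type on day 1 and 24.9%, 35.6% and 22.9% on day 6. In the mutant it held 84.1%, 90.8% and 88.6% on day 1 and 68.2%, 38.0% and 45.5% on day 6. Isoform c fell with age (-3.11 ± 0.41, adjusted p = 0.00085, in wild type and -1.83 ± 0.39, adjusted p = 0.01, in *fog-2(lf)*), called under each alternative of the isoform fit. Isoform a rose in both (1.89 ± 0.48, adjusted p = 0.019, and 1.37 ± 0.47, adjusted p = 0.071), and the second of these calls was lost in the fit of the *fog-2(lf)* libraries alone and without *fog-2(lf)* day 1 or day 6 replicate 2 or 3.

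In *epi-1* an exon of 33 nt (chromosome IV, 10671209 to 10671241) is present in isoforms c and f, and one of 96 nt (10677674 to 10677769) in a, e and f. Isoforms a, b, c and f also have a longer form of an upstream exon (10670910 to 10671063) than d and e (10670910 to 10671036). The shares of isoforms with the 33-nt exon therefore do not separate that exon from this longer end. Isoforms with the 33-nt exon held 50%, 72.3% and 32.0% of *epi-1* in wild type on day 1 and 7.0%, 9.51% and 5.81% on day 6. In *fog-2(lf)* they held 33.8%, 44.4% and 44.4% on day 1 (711.1 to 967.4 estimated counts) and at most 0.1 estimated counts in any library on day 6. Isoforms with the 96-nt exon held 85.1 ± 6.46% in wild type on day 1, 30.2 ± 11.6% on day 6, 73.6 ± 6.69% in *fog-2(lf)* on day 1 and 21.8 ± 7.85% on day 6 (SD, n = 3). Isoform d, which has neither exon, took their place, from 6.96 ± 3.74% to 64.5 ± 9.94% in wild type and from 15.3 ± 5.84% to 78.2 ± 7.76% in *fog-2(lf)*. Its form d.1 rose in wild type (4.58 ± 0.46, adjusted p = 0.00023) and in the mutant (2.46 ± 0.41, adjusted p = 0.0035), again under each alternative. Replicate 1 of wild type on day 1 did not stand apart in the shares of *nid-1* or *let-2*. In *emb-9*, by comparison, isoform a held between 72.9% and 89.1% in every library.

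**Figure D4:**
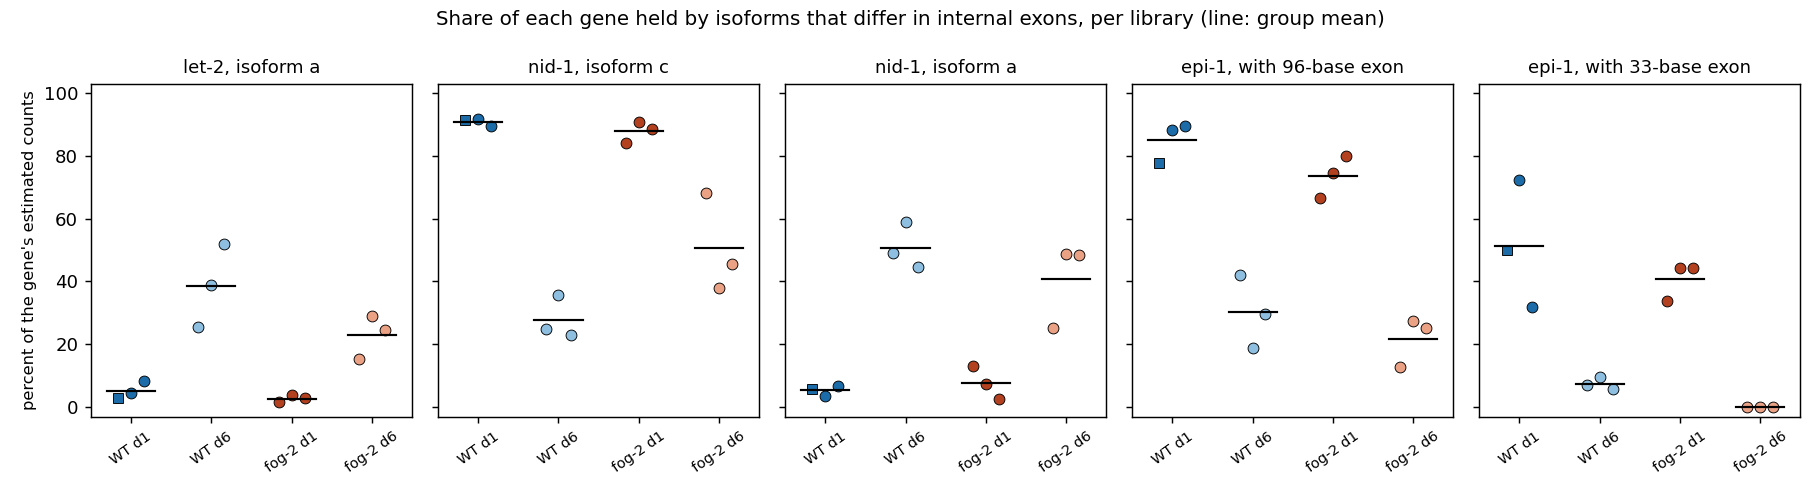
Percent of a gene's estimated counts (y axis) held by isoforms that differ in internal exons, in the 3 libraries of each group (x axis), with the group mean as a line and wild type day 1 replicate 1 as a square. In each panel the day 1 and day 6 libraries of a genotype do not overlap, for example 89.5% or more against 35.6% or less for *nid-1* isoform c in wild type.

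Over all 58 isoforms of the 10 genes, 45 passed the filter. With age in wild type 10 of these were called higher, with 14.7% of all 21695 isoforms tested called higher, and 5 lower, with 16.2% called lower. In *fog-2(lf)* 5 were called higher (12% of all isoforms) and 14 lower (14.2%). The 5 lower in wild type became 9 without replicate 1 of day 1 and 2 without day 1 replicate 2 or day 6 replicate 1 or 3. The 5 higher in *fog-2(lf)* became 2 without day 1 replicate 2 or 3 or day 6 replicate 3. The isoforms of *unc-52* overlap heavily, and the split among them varied within a group (isoforms d, e and g together held 7.99% to 38.4% of its counts in *fog-2(lf)* on day 6), so they are not described one by one. TPM summed over isoforms is misleading for *lam-1*. Its 231-nt isoform b held 4.62% to 7.83% of the gene's counts but 89.6% to 93.8% of its summed TPM, so the ratio of *lam-1* to *lam-2* was 16.5 ± 2.21 in wild type on day 1 by TPM and 1.68 ± 0.0872 per length. An isoform of 894 nt of *him-4* likewise held 71% to 87.6% of its TPM from 9.09% to 22.5% of its counts. For this reason levels were given as CPM.

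The other genes of these matrices were followed by lists. The shares of all genes called in each comparison, given above, are the background for every list. Some listed genes have long transcripts too, such as *vab-10* (15254 nt) and *mua-3* (11582 nt). For the interaction 36.4% of genes of at least 10000 nt and 21.7% of those of 5000 to under 10000 nt were called lower. Of 12 other basement membrane genes, 3 were called higher and 4 lower with age in wild type (median log2 fold change -0.31) and 1 higher and 5 lower in *fog-2(lf)* (median -0.86), against the shares of all genes given above. *test-1* (testican, a proteoglycan) fell in wild type (from 40.6 ± 8.84 to 12.8 ± 0.994 CPM, -1.66 ± 0.19, adjusted p = 0.00011) and in the mutant (-1.95 ± 0.20, adjusted p = 7.8e-05). *ost-1* (SPARC, a collagen-binding protein) fell in wild type (-0.86 ± 0.15, adjusted p = 0.001) and in the mutant (from 228 ± 52.2 to 85.8 ± 1.68 CPM, -1.41 ± 0.15, adjusted p = 9.7e-05). *pxn-1*, a peroxidasin, fell by nearly the same amount in both (-1.51 ± 0.29, adjusted p = 0.0017, and -1.5 ± 0.28, adjusted p = 0.0026). *lam-3*, the other laminin alpha chain, rose in wild type (from 10.7 ± 4.41 to 29.5 ± 8.23 CPM, 1.47 ± 0.30, adjusted p = 0.0027), with 0.41 ± 0.29 (adjusted p = 0.32) in *fog-2(lf)*. These 7 calls held under each of the 24 alternatives. *pxn-2*, the paralog of *pxn-1* and named after its values were seen, rose in both genotypes (1.62 ± 0.33, adjusted p = 0.0026, and 1.41 ± 0.32, adjusted p = 0.0071). The list's calls for genotype were few on day 1 (1 lower), and on day 6 4 were lower, which became 0 without *fog-2(lf)* day 6 replicate 1 and 6 without wild type day 1 replicate 1.

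Of 15 matrix receptors and hemidesmosome genes, 5 were called higher and 1 lower with age in wild type (median 0.32, and 0.15 without replicate 1 of day 1), and 6 were called lower in *fog-2(lf)* (median -0.39). By genotype 6 were higher on day 1 (4 without replicate 1 of wild type on that day) and 5 lower on day 6, the second number being 1 without wild type day 6 replicate 2 or *fog-2(lf)* day 6 replicate 1. For the interaction 7 were lower (median -0.83), with 7.97% of all genes called lower, and 6 were without replicate 1 of wild type on day 1 (median -0.75). *mua-3*, a transmembrane protein of epidermal attachment structures, fell in *fog-2(lf)* (from 31.3 ± 9.44 to 8.43 ± 0.959 CPM, -1.89 ± 0.39, adjusted p = 0.0039), with 0.25 ± 0.37 (adjusted p = 0.63) in wild type and an interaction of -2.14 ± 0.54 (adjusted p = 0.039). *pat-2*, the muscle integrin alpha chain, fell in *fog-2(lf)* (-1.36 ± 0.33, adjusted p = 0.0088), with 0.63 ± 0.32 (adjusted p = 0.14) in wild type and an interaction of -1.99 ± 0.46 (adjusted p = 0.031). *mup-4*, another epidermal attachment protein, fell in wild type (-0.70 ± 0.22, adjusted p = 0.025) and in the mutant (-1.33 ± 0.22, adjusted p = 0.0012), the first call being lost with library totals and in the fits on TPM. *let-805* (myotactin, also of the epidermal attachments) fell in *fog-2(lf)* (-1.34 ± 0.37, adjusted p = 0.019), with -0.20 ± 0.37 (adjusted p = 0.7) in wild type.

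The integrin adhesion complex links those receptors to actin. Of its 6 genes, 2 were called higher with age in wild type (median -0.09), and 5 were called lower in *fog-2(lf)* (median -0.62). The first became 0 without wild type day 6 replicate 2, and without replicate 1 of wild type on day 1 it became 1 higher and 2 lower. For the interaction 4 were lower (median -0.88), with 7.97% of all genes called lower. The 4 became 2 in 5 of the fits that left out a library. *deb-1* (vinculin) fell in *fog-2(lf)* (from 58.9 ± 17.8 to 18.7 ± 1.66 CPM, -1.65 ± 0.26, adjusted p = 0.001), with -0.38 ± 0.26 (adjusted p = 0.26) in wild type. *unc-97* (PINCH) fell in *fog-2(lf)* (-0.99 ± 0.14, adjusted p = 0.00049), with 0.07 ± 0.14 (adjusted p = 0.72) in wild type and an interaction of -1.06 ± 0.20 (adjusted p = 0.018). *pat-4* (integrin-linked kinase) fell in *fog-2(lf)* (-0.69 ± 0.15, adjusted p = 0.0056). *tln-1* (talin) rose in wild type (0.86 ± 0.30, adjusted p = 0.038), a call that was lost without wild type day 6 replicate 2, with -0.51 ± 0.30 (adjusted p = 0.22) in *fog-2(lf)*.

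Genes for collagen folding and secretion had small changes. Of 8, 2 were called higher and 1 lower with age in wild type (median 0.04) and 1 lower in *fog-2(lf)* (median 0.02). For the interaction 0 were called by edgeR, with 2 lower at an unadjusted p under 0.05, 1 lower called by DESeq2 and 2 lower called by limma on log2(TPM + 0.5). *pdi-2*, the protein disulfide isomerase that is also a subunit of prolyl 4-hydroxylase, fell in wild type (-0.49 ± 0.15, adjusted p = 0.019) and *fog-2(lf)* (-0.39 ± 0.15, adjusted p = 0.062), but under library totals and in the fits on TPM neither was called, and the second was also lost without *fog-2(lf)* day 1 or day 6 replicate 1 or 3. *dpy-18*, a catalytic subunit of that enzyme, rose in wild type (0.44 ± 0.14, adjusted p = 0.029), though not without wild type day 6 replicate 2. On day 1 *let-268* (lysyl hydroxylase) was lower in *fog-2(lf)* (-0.74 ± 0.26, adjusted p = 0.094) and *tmem-131*, needed for collagen secretion, higher (0.44 ± 0.13, adjusted p = 0.051), with the first lost in 9 and the second in 3 of the 12 fits that left out a library, wild type day 1 replicate 1 among the 3.

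Of 14 matrix proteases and inhibitors 12 passed the filter on counts. With age 3 were called higher and 2 lower in wild type (median 0.12) and 5 lower in *fog-2(lf)* (median -0.03). The 3 became 1 without wild type day 1 replicate 1 or day 6 replicate 2, the 2 became 1 without wild type day 1 replicate 2 or day 6 replicate 2 or 3, and the 5 became 2 without *fog-2(lf)* day 6 replicate 1 or 2. *adt-2*, an ADAMTS protease, fell in wild type (-1.13 ± 0.29, adjusted p = 0.0092) and in the mutant (-1.67 ± 0.29, adjusted p = 0.0016). *unc-71*, an ADAM protein, rose slightly in wild type (0.25 ± 0.10, adjusted p = 0.068), a call that was lost without replicate 1 of day 1 or without day 6 replicate 2 or 3.

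Markers of the tissues that make these proteins moved as well. The summed level of 7 body wall muscle genes, led by *unc-54*, ran from 928 to 2000 CPM in wild type on day 1 and from 502 to 641 on day 6. In *fog-2(lf)* it ran from 1730 to 3300 CPM on day 1 and from 354 to 404 on day 6. This sum was lowest in *fog-2(lf)* on day 6, and replicate 1 of wild type on day 1 had the lowest sum of its group. Some of the 7 genes have long transcripts themselves, such as *unc-89* (24858 nt) and *unc-22* (22053 nt). The part of transcript length in that low sum was not tested. With age 3 of the 7 were called lower and 1 higher in wild type (median -0.41, with 4 lower without replicate 1 of day 1), and in the mutant 6 were lower and 1 higher (median -2.21), where the shares of all genes called lower were 25.5% and 21.2%. The sum of 5 hypodermis genes was 358 to 1380 CPM on day 1 and 66.7 to 82.4 on day 6 in wild type, and 619 to 1430 and 83.8 to 87.2 in *fog-2(lf)*. The lower sums on day 6 came mostly through *col-19*, an adult cuticle collagen, at 688 and 6.36 CPM on average in wild type and 1080 and 20 in the mutant. Of the 5 genes 2 were called higher and 1 lower with age in wild type (median 0.04), and in the mutant 2 were higher and 2 lower (median 0.09). The sum of 8 somatic gonad genes, led by *inx-8*, was 144 to 167 CPM in wild type on day 1 and 197 to 202 on day 6, and 106 to 124 and 129 to 139 in *fog-2(lf)*. Of the 8, 2 were called higher and 0 lower with age in wild type, and 1 higher and 2 lower in *fog-2(lf)*, although the sum rose. By genotype on day 6, 6 of the 8 were called lower, with 10.5% of all genes called lower. The sum of 4 pharynx genes, led by *myo-2*, was 4.42 to 37.3 CPM and 21.3 to 28.7 in wild type, and 18.7 to 28.1 and 8.31 to 9.17 in *fog-2(lf)*. Of the 4, 1 was called higher and 0 lower with age in wild type, and 1 higher and 2 lower in *fog-2(lf)*. The 5 intestine genes, led by *act-5*, summed to 815 to 836 and 113 to 199 CPM in wild type and to 304 to 476 and 139 to 147 in *fog-2(lf)*. The 7 neuronal genes, led by *snb-1*, summed to 259 to 353 CPM in all 12 libraries, and the 6 germline genes, led by *gld-1*, to 2530 to 3480. No marker was at 0 in any group. The part of these tissues in the changes of the matrix genes was not tested.

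The genes whose pattern over the 12 libraries was most like the mean pattern of the 10 were, of 7384 other genes with at least 10 CPM on average, *unc-68* (ryanodine receptor, Pearson r = 0.935), *ketn-1* (kettin, 0.934), *fasn-1* (fatty acid synthase, 0.912), *tln-1* (talin, 0.909) and *unc-89* (obscurin, 0.908). These are descriptions over the same 12 libraries, with no test, and all 5 also have long transcripts, from 8313 to 24858 nt. The 10 genes themselves did not form a single pattern. Pairwise Pearson correlations over the 12 libraries ran from -0.85 (*fbn-1* and *nid-1*) to 1.00 (*emb-9* and *let-2*), with *unc-52* close to both collagens (0.95 each).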

How the data were processed

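RNA from whole worms was enriched for poly(A), and libraries were sequenced as single reads. The authors quantified reads against the transcriptome with kallisto (genome build WBcel235, per the labels) and fitted sleuth. No versions are named in the sources read here. The deposited files list, for each of 32905 isoforms, estimated counts and TPM (transcript abundance scaled to a fixed total), which the authors' kallisto run divided by effective length. Isoforms were matched to gene symbols by sequence name (318 had none) and summed per gene.

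Summed estimated counts were rounded and fitted with edgeR 4.0.16 in R 4.3.3 (TMM factors, filterByExpr, 4 group means, quasi-likelihood test), with Benjamini-Hochberg adjustment over all genes and calls at 0.1, the study's threshold. The same fit was run on isoforms. Each SE was taken from the F statistic. Alternatives were DESeq2 1.42.0, limma 3.58.1 on log2(TPM + 0.5, 0.1 or 1), other scalings, filters and thresholds, a replicate block, the compared libraries alone, leaving out each library, and, chosen after seeing the data, leaving out isoforms under 20% of the longest of their gene (201 isoforms) and grouping isoforms by exon. Subunit ratios were planned on summed TPM and are given per length. The scripts were tested on simulated data. Depth was lowest, and counting error largest, for *fbn-1* in wild type on day 1.

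The 10 genes and all lists were chosen with earlier results of these data known. From each other list, up to 4 called genes of at least 10 CPM with the largest fold change were named. Isoforms under 10% of a gene's summed TPM in every group were not named, and sequences were not analysed here.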

Additional observations from a re-analysis of the deposited data

Results flagged for a closer look

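The effect of age differed between the genotypes, by edgeR's test of the interaction, for 9 of the genes named above. In each of the 9 the effect in *fog-2(lf)* was the more negative one. Of all genes tested, 7.97% were called lower for the interaction and 7.38% higher. Genes of the other lists were named by calls and fold changes in contrasts that include the interaction, so their number here is not independent evidence. Among the matrix genes the difference was -2.50 ± 0.78 on the log2 scale (SE, adjusted p = 0.07) for *him-4*, -2.63 ± 0.70 (adjusted p = 0.046) for *fbn-1*, -2.48 ± 0.80 (adjusted p = 0.079) for *dig-1* and -0.84 ± 0.23 (adjusted p = 0.05) for *lam-1*. Among receptors it was -1.99 ± 0.46 (adjusted p = 0.031) for *pat-2* and -2.14 ± 0.54 (adjusted p = 0.039) for *mua-3*. Among genes of the integrin adhesion complex it was -1.06 ± 0.20 (adjusted p = 0.018) for *unc-97*, -1.37 ± 0.42 (adjusted p = 0.069) for *tln-1* and -1.27 ± 0.37 (adjusted p = 0.056) for *deb-1*. The calls for *pat-2*, *mua-3* and *unc-97* held in each of the 12 fits that left out a library, while those for the other 6 genes were lost in 3 to 9 of them. The median of all genes of at least 10000 nt moved the same way (-1.01, and -0.72 without replicate 1 of wild type on day 1), and the part of transcript length in these differences was not tested.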

How the results depend on the processing

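Of 1190 refitted fold changes of the 10 genes, 1099 kept their side of the threshold, 55 lost a call, 36 gained one and 0 changed the sign of a called value. The 1099 include values called in neither fit that changed sign. An example is *him-4* for age in wild type (0.36, and -0.11 without replicate 1 of wild type on day 1). The number called lower with age in wild type was 1 in each of the 3 limma fits on TPM. The number higher in *fog-2(lf)* on day 1 was 0 at an adjusted p under 0.05 and 0 with the 6 compared libraries alone. The number lower on day 6 was 1 with library totals, 3 in each limma fit and 7 with the compared libraries alone. Shares of all genes called are not given for the limma fits or for the fits on compared libraries alone. The number with a negative interaction was 1 at an adjusted p under 0.05. Leaving out each library gave 2 to 6 higher and 2 to 4 lower with age in wild type, 1 and 5 to 6 in *fog-2(lf)*, 0 to 3 higher on day 1, 0 to 1 lower on day 6 and 0 to 5 negative interactions. The cause of these differences was not tested, beyond the smaller number of libraries.

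Member isoforms called higher and lower with age were 10 and 5 in wild type and 5 and 14 in *fog-2(lf)*. Counted as gene sums these were 4, 2, 1 and 5. At an adjusted p under 0.05 the lower ones in wild type were 3 and the higher ones in *fog-2(lf)* 2, and with the compared libraries alone the lower ones in wild type were 3. Leaving out each library gave 8 to 11, 2 to 9, 2 to 6 and 11 to 16.

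The ratio of *lam-1* to *lam-2* by summed TPM was 16.5 (wild type day 1), 26.8 (wild type day 6), 29.6 (*fog-2(lf)* day 1) and 29.7 (*fog-2(lf)* day 6). Per length it was 1.68, 2.22, 2.30 and 2.43, and with isoforms of at least 1000 nt only 1.49, 1.97, 2.02 and 2.13, the 231-nt isoform being left out. The ratio of *let-2* to *emb-9* in *fog-2(lf)* on day 1 was 1.52 by TPM and 1.56 per length. The ratio of *epi-1* to *lam-2* was 0.587 and 0.622 in wild type on day 6, and 0.653 and 0.702 in *fog-2(lf)* on day 1.

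The sample labels give replicate numbers but do not say whether same-numbered libraries belong together. Correlations of same-numbered libraries' deviations ran from -0.139 to 0.163, and 4 of 18 were over 0.1. For the 36 other pairs between groups they ran from -0.158 to 0.128. These ranges overlap, and they cannot show whether same-numbered libraries shared a batch. With a replicate block the called numbers were 4 and 2, 1 and 5, 2 and 0, 0 and 0, and 0 and 4 in the 5 comparisons, *fbn-1* on day 1 being lost (adjusted p = 0.11). Over all genes the block moved the calls from 7125 to 7167, from 5711 to 5866, from 2669 to 2582, from 2962 to 3094 and from 2234 to 2190.

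With 3 libraries a group, the calls of genotype effects and interactions of the matrix genes were lost in fits that left out a single library. The called interactions kept their sign in those fits, from -3.47 to -2.03 for *him-4* and from -0.97 to -0.67 for *lam-1*. Long transcripts differ between libraries as a class. Isoform shares are estimates from short single reads. Day 1 counts of *fbn-1* in wild type were 16 to 35.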

Other observations

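A further laminin value lay outside the comparisons. The ratio of the alpha chain genes *epi-1* to *lam-3*, per length, was 2.74 ± 0.623 in wild type on day 1, 2.15 ± 0.416 on day 6, 3.44 ± 0.701 in *fog-2(lf)* on day 1 and 3.17 ± 0.225 on day 6 (SD, n = 3), so *epi-1* was the more abundant alpha chain message in each group, and the groups' spreads overlapped between ages.

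Outside the rule for named genes and named after their values were seen, *agr-1*, which encodes agrin, and *zmp-1*, a matrix metalloprotease, had log2 fold changes with age in wild type of 1.52 ± 0.43 and 2.12 ± 0.29 (SE, edgeR adjusted p = 0.015 and 0.00029), at a mean of 1.88 and 1.87 CPM.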
